A study of Homo sapiens with 6 samples.

Results

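Cholesterol and fatty acid synthesis genes were examined as a set of 38 named genes that make, activate or store sterols and fatty acids, together with the regulators of their transcription. The members were found by gene symbol, and all 38 were among the 60591 genes of the deposited count table. They comprised 4 regulators of the sterol regulatory element-binding protein (SREBP) pathway, 7 genes of mevalonate and isoprenoid synthesis, 11 genes of the sterol steps from squalene onward and of sterol transfer, 8 genes of fatty acid synthesis, elongation and desaturation, 3 genes of fatty acid activation and 5 genes of glycerolipid synthesis and storage. All 38 passed the filter on low counts, which left 20676 genes for testing.

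SREBPs are transcription factors that are made as membrane proteins of the endoplasmic reticulum, where they are bound to SCAP, and INSIG proteins hold that complex in place while sterols are plentiful. When sterols run low, SCAP escorts the SREBP to the Golgi, proteases free its active part, and that part raises transcription of genes of cholesterol and fatty acid synthesis, INSIG1 among them. The product of SREBF2 acts mostly on cholesterol genes and the main product of SREBF1 mostly on fatty acid genes. Breast cancer cells commonly make their own fatty acids through FASN and desaturate them through SCD.

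RNA was sequenced from MDA-MB-231 cells, a human triple-negative breast cancer line, in a variant that homes to bone. All 6 libraries came from this variant, and the labels place them in 1 experiment. The static group had no flow (0 mL/min), the low flow group underwent fluid shear at 1 mL/min and the high flow group at 15 mL/min, with 2 libraries each, to mimic fluid motion in mechanically loaded bone. The sources used here do not give the duration of flow.

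Library totals ran from 17822642 to 23544307 counts in static, from 45174328 to 47067620 in low flow and from 43965176 to 53279537 in high flow. Static and low flow libraries share a sequencing lane in their column names. Both high flow libraries carry another lane and alignment file names of a different form. The effects of lane, of any other difference in handling and of flow therefore cannot be told apart wherever high flow is compared. High flow cannot be set against another group within 1 lane. The labels number the libraries of a group as replicates but do not say whether cultures were separate, and p-values therefore cover only library-to-library spread, which may be technical. The labels call the cells endothelial cancer cells, whereas markers of the basal breast cancer line (VIM, CD44, AXL and 5 others) summed to 6058 to 7678 CPM (counts scaled to a common library size) per library and 8 endothelial markers to 65.2 to 95.4 CPM. Of those endothelial markers 4, among them CDH5, VWF and CLDN5, lay under 1 CPM in every library, and the sum was mostly TIE1, ESAM and PECAM1. All 5 adipocyte markers lay under 1 CPM in every library. VIM alone gave 3618 to 5031 CPM of the basal sum, while S100A4 of that list lay at 1.56 to 3.27 CPM. Luminal markers summed to 55.8 to 97.0 CPM, and osteoblast and osteocyte markers to 54.5 to 70.7 CPM. Leukocyte markers summed to 259 to 339 CPM, almost all from CD68. These sums describe marker levels and do not by themselves identify the cells.

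The promoters of 5 members are shown because SREBF2 holds the classical sterol regulatory element and because INSIG1, ACSS2, SCD and EBP passed the test for high flow against static both without and with a correction for GC content and transcript length. Each is the 250 bases before the RefSeq start on GRCh38.p14, written 5′ to 3′. In all 5 that start lies within the GENCODE gene rather than at its first base. Capitals mark matches on either strand to TCACNCCAC (a sterol regulatory element), CACGTG (an E-box) or CCAAT (the box of the factor NF-Y), so that ATTGG marks a CCAAT box on the other strand.
SREBF2 promoter, chr22:41832855-41833104, plus strand: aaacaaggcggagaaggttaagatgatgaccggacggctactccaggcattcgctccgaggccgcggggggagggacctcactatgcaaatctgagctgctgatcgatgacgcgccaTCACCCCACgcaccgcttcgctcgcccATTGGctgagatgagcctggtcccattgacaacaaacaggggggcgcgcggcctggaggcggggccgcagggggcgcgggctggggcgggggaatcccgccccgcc
INSIG1 promoter, chr7:155297628-155297877, plus strand: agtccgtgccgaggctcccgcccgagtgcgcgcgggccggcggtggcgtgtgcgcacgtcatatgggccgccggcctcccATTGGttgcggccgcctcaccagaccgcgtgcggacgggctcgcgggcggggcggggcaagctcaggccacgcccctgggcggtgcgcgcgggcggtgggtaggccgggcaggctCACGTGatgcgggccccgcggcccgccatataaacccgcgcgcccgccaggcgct
ACSS2 promoter, chr20:34874739-34874988, plus strand: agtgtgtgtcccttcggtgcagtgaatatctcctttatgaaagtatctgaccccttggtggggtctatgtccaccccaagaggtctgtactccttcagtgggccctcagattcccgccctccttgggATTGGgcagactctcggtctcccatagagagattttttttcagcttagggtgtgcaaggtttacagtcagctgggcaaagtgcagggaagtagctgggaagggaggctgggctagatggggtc
SCD promoter, chr10:100346983-100347232, plus strand: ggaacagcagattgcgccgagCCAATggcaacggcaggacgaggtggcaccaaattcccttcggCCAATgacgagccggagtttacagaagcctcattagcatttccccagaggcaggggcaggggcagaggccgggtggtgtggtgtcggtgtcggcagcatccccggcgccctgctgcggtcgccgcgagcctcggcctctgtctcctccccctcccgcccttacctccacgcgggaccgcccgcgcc
EBP promoter, chrX:48521558-48521807, plus strand: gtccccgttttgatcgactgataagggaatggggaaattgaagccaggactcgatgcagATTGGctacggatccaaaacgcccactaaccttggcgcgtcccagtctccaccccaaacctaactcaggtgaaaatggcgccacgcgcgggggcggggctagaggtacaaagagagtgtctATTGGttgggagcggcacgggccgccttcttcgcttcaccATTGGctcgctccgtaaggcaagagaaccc

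The sterol regulatory element in SREBF2 begins 133 bases before the start and its CCAAT box 106 bases before. INSIG1 has an E-box that begins 55 bases before the start and a CCAAT box that begins 170 bases before it. ACSS2 has 1 CCAAT box, SCD 2 and EBP 3. RefSeq promoters were found for 32 of the 38 members, and those of ACAT2, DGAT1, DGAT2, FASN, FDFT1 and SQLE were not used here. A gene with several promoter entries was counted once, as a match if any entry held the motif. Over the 32, the CCAAT box was found for 21 genes (65.6%), against 37.0% of 27305 genes searched in the same way. The sterol regulatory element was found in SREBF2 and ACSL1 (6.25%, against 1.09% of the 27305 genes). The E-box was found in SCAP, INSIG1, SC5D and PLIN2 (12.5%, against 7.73% of the 27305 genes and 10.8% of 11601 tested genes). Among tested genes the CCAAT box was found in 40.8% and the sterol regulatory element in 1.25%. No motif overlapped another in the printed promoters, and a match is a description of letters, not of binding.

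**Figure D1:**
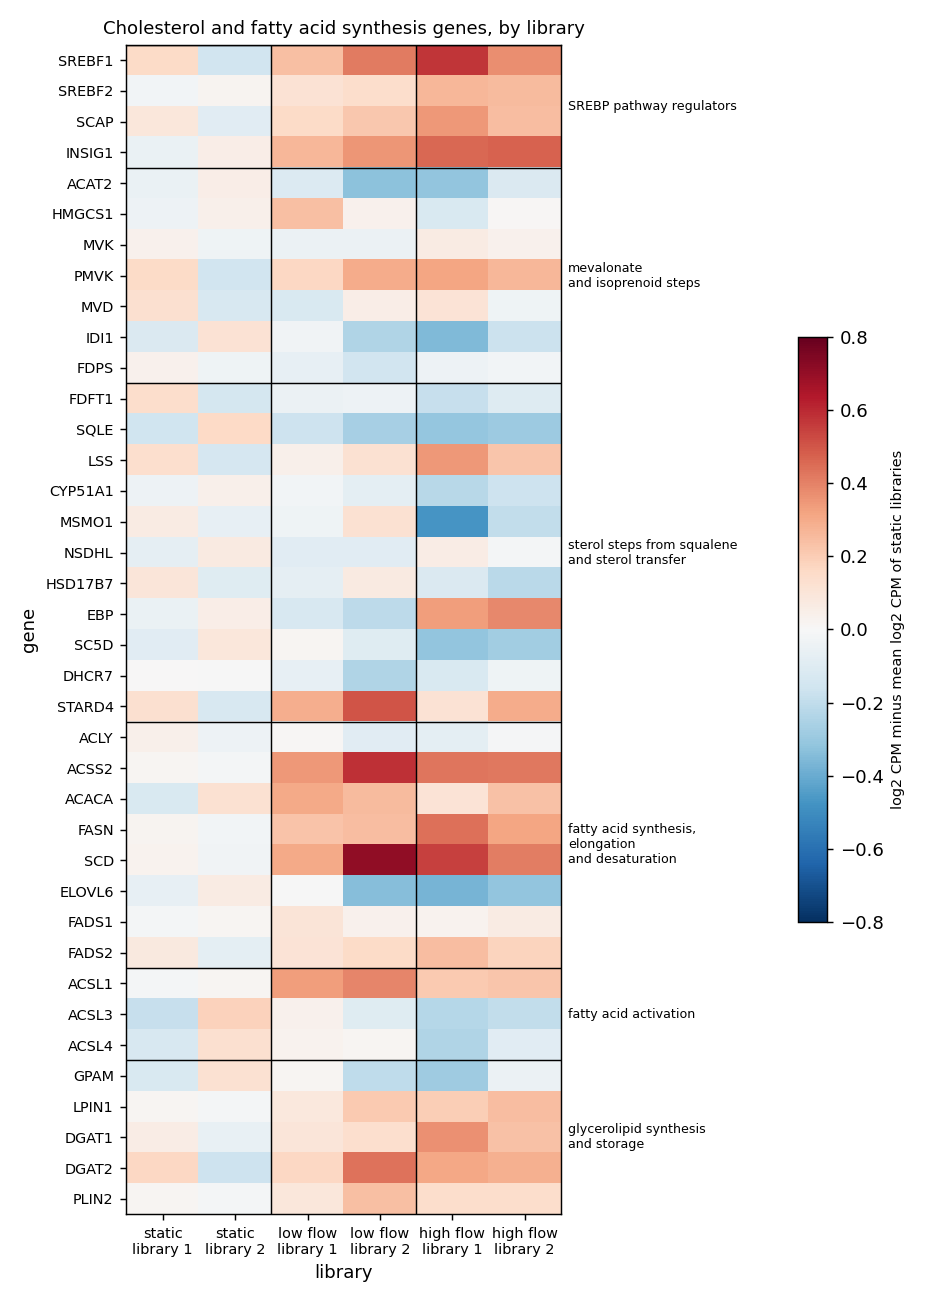
Expression of the 38 members in each library, as log2 CPM minus the mean log2 CPM of the static libraries, with members in rows by role and libraries in columns from static to low flow to high flow. SREBF1, INSIG1, ACSS2, SCD and FASN are red in all 4 flow libraries, while the rows of MSMO1, SC5D and SQLE are blue in both high flow libraries.

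Under low flow 4 of the 38 members were higher than in static cells and none was lower. The 4 were ACSS2 and SCD of fatty acid synthesis, ACSL1 of fatty acid activation and the sterol carrier STARD4. They made up 10.5% of members, while 3.25% of all genes tested were called higher and 3.49% lower (edgeR quasi-likelihood test, Benjamini-Hochberg adjusted p under 0.05). At an unadjusted p under 0.05 the test gave 8 members higher and 0 lower (11.7% of all genes in each direction), and DESeq2 called 4 higher and 0 lower (5.64% and 6% of all genes it tested). Both low flow libraries lay above both static libraries for 16 members and below them for 7, against 27.1% and 26.3% of all genes tested. The median log2 fold change was 0.06 over the members and 0.01 over all genes tested. In these bulk libraries, a lower level in every cell and fewer cells that express a gene cannot be told apart. The count of 4 rested on single libraries: it was 0 without the first or the second static library or the second low flow library, 2 without the first high flow library and 1 without the second, and 2 with only the 4 libraries compared.

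Under high flow 6 members were higher than in static cells and 1 was lower. The 6 were SREBF1 and INSIG1 of the SREBP pathway, the sterol isomerase EBP, and ACSS2, FASN and SCD of fatty acid synthesis, and the 1 was the elongase ELOVL6. They made up 15.8% and 2.63% of members, while 7.49% of all genes tested were called higher and 6.43% lower. At an unadjusted p under 0.05 there were 14 members higher and 5 lower, against 15.0% and 14.3% of all genes tested. Both high flow libraries lay above both static libraries for 17 members and below them for 10, against 29.9% and 29.4% of all genes tested. The median log2 fold change was 0.05 over the members and 0.00 over all genes tested. The 6 became 1 without the second static library, 0 without the first high flow library and 1 without the second, and ELOVL6 did not pass without either static or either high flow library. ACSS2 and SCD were the 2 members that passed at both flow rates, and both comparisons use the same static libraries.

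Between the flow rates EBP was the 1 member that passed, higher under high flow than under low flow, and none passed as lower. That is 2.63% of members, while 0.242% of all genes tested were called higher and 0.0919% lower. At an unadjusted p under 0.05 edgeR gave 1 member higher and 2 lower, MSMO1 and SC5D, against 5.08% and 4.54% of all genes tested, and DESeq2 called 1 higher and 0 lower (0.547% and 0.166% of all genes it tested). Both high flow libraries lay above both low flow libraries for 11 members and below them for 11, against 21.2% and 21.5% of all genes tested. The call on EBP ended in each fit that left out 1 library, other than the first low flow library, and with only the 4 libraries compared.

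Among the SREBP pathway regulators, SREBF1 and INSIG1 passed under high flow and all 4 genes had their flow libraries above both static libraries at either rate. The same held for 27.1% of all genes tested under low flow and 29.9% under high flow, and both rates share the static libraries. SREBF1, the gene of SREBP factors with fatty acid targets (chr17:17810399-17837002, minus strand, in GENCODE 29 on GRCh38, as for all gene positions given here), had 79.9 and 64.3 CPM in static, 84.8 and 95.6 CPM in low flow and 107 and 92.7 CPM in high flow. Its log2 fold change was 0.33 (SE 0.12, adjusted p = 0.0973) for low flow against static and 0.47 (SE 0.12, adjusted p = 0.0136) for high flow against static. INSIG1, which retains the SCAP complex (chr7:155297776-155310235, plus strand), had 37.8 and 40.8 CPM in static, 47.3 and 50.2 CPM in low flow and 54.0 and 54.5 CPM in high flow. No library of INSIG1 overlapped that of another group. Its log2 fold change was 0.31 (SE 0.10, adjusted p = 0.0689) under low flow and 0.46 (SE 0.10, adjusted p = 0.00632) under high flow, a 1.38-fold higher level. The difference between the rates did not pass for INSIG1 (log2 fold change 0.15, adjusted p = 0.636) or SREBF1 (0.14, adjusted p = 0.729).

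SREBF2, the gene of the SREBP with mainly cholesterol targets, and SCAP, the escort, did not pass at either rate. SREBF2 had 59.6 and 61.4 CPM in static, 65.6 and 66.8 CPM in low flow and 72.7 and 72.1 CPM in high flow. Its log2 fold change was 0.13 under low flow and 0.26 under high flow (95% interval 0.06 to 0.46, adjusted p = 0.0732). SCAP had 65.9 and 58.0 CPM in static, 68.9 and 71.9 CPM in low flow and 78.7 and 73.5 CPM in high flow, with a log2 fold change of 0.19 under low flow and 0.30 under high flow (adjusted p = 0.0546). Both genes had their high flow libraries above all other libraries. With offsets for GC content and transcript length, described with the GC values further on, the high flow values against static were 0.16 for SREBF1 (adjusted p = 0.230), 0.01 for SREBF2 and 0.00 for SCAP, while INSIG1 stayed at 0.50 (adjusted p = 0.00400).

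**Figure D2:**
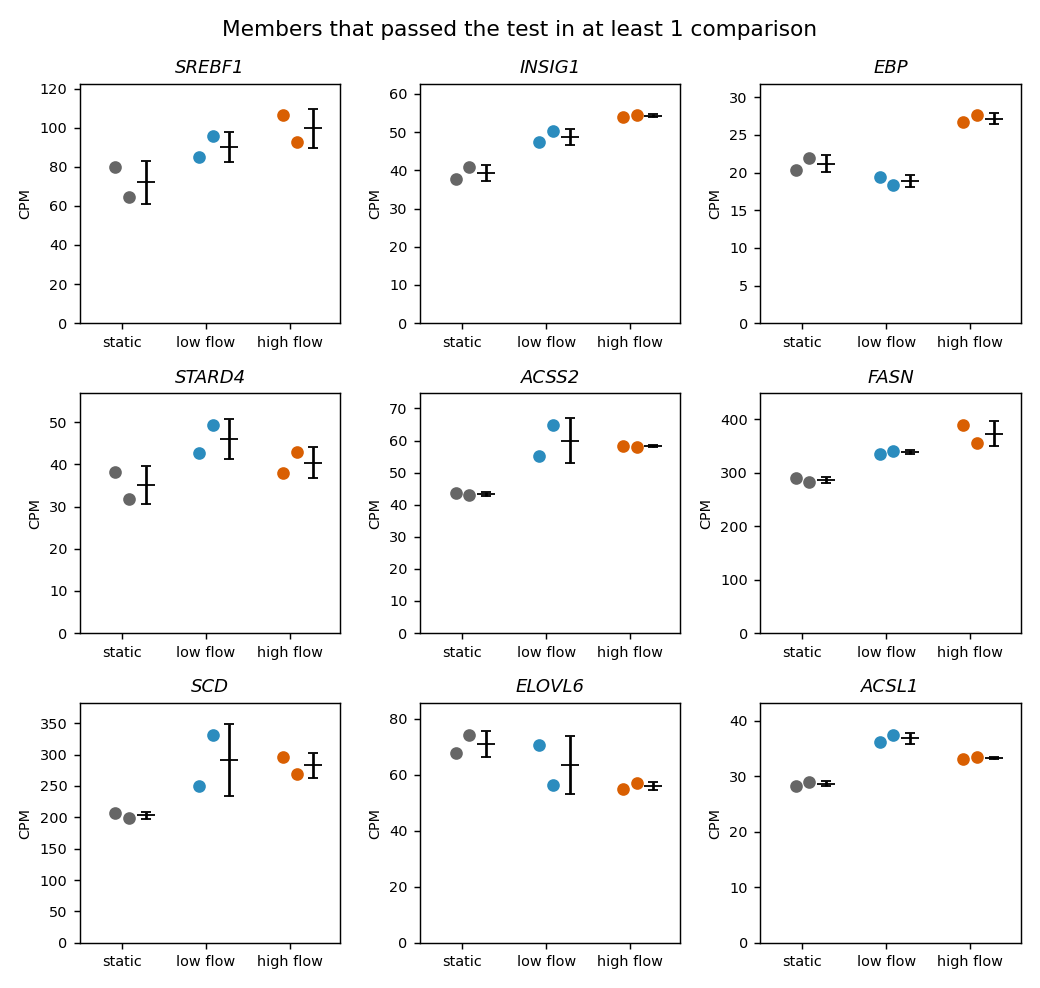
CPM of the 9 members that passed in at least 1 comparison, by group on the horizontal axis; points are libraries and bars the mean and SD of 2 libraries, on axes that start at 0. The EBP panel has both high flow libraries above the other 4, and the ELOVL6 panel has them below both static libraries.

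None of the 7 genes of mevalonate and isoprenoid synthesis passed in any comparison, and at an unadjusted p under 0.05 there was 1 higher and 1 lower, both under high flow against static. HMGCS1, which makes the HMG-CoA that the mevalonate pathway starts from, had 43.5 and 46.1 CPM in static, 52.8 and 45.8 CPM in low flow and 41.1 and 45.1 CPM in high flow. Its groups overlapped at both rates, and the 95% interval of its log2 fold change was -0.08 to 0.36 under low flow and -0.28 to 0.17 under high flow. The acetyl-CoA thiolase ACAT2, at the head of the pathway, had 23.7 and 20.3 CPM in low flow and 20.5 and 23.5 CPM in high flow, against 24.6 and 26.5 CPM in static. Its log2 fold changes were -0.22 (adjusted p = 0.284) under low flow and -0.22 (adjusted p = 0.244) under high flow. PMVK, the phosphomevalonate kinase, had the highest log2 fold change of the group at both rates, 0.23 (adjusted p = 0.272) under low flow and 0.29 (adjusted p = 0.128) under high flow.

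IDI1, which interconverts the isoprenoid building blocks, had 35.6 and 40.2 CPM in high flow against 41.9 and 49.2 CPM in static (log2 fold change -0.27, adjusted p = 0.130), and its log2 fold change under low flow was -0.14. For MVK, the mevalonate kinase, MVD, the decarboxylase, and FDPS, the farnesyl diphosphate synthase, the log2 fold changes lay between -0.11 and 0.05 at both rates against static. Their 95% intervals ran from -0.32 to 0.23 for MVK and from -0.31 to 0.09 for FDPS under low flow. The median of the group was -0.05 under low flow and -0.03 under high flow. ACAT2 lies on the opposite strand to exons of SOD2 and TCP1. The sources used here do not give the strand setting of the counting, so the values of ACAT2 are uncertain to that extent. Other members share this limit, among them SREBF1 opposite to RAI1, DGAT1 opposite to HSF1 and MVK opposite to MMAB. SREBF1 and RAI1 share 556 exon bases, with 20885 and 32927 counts over all libraries. FDPS and the RNA RUSC1-AS1 overlap on opposite strands, with 20219 and 573 counts over all libraries. FDPS also has pseudogene copies that can take some of its reads.

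Of the 11 genes from squalene onward, EBP and STARD4 passed, in different comparisons. EBP, the isomerase that moves the ring double bond of a sterol intermediate (chrX:48521158-48528716, plus strand), had 20.4 and 22.0 CPM in static, 19.4 and 18.4 CPM in low flow and 26.7 and 27.7 CPM in high flow. Its high flow libraries were the highest 2 of the 6 and its low flow libraries the lowest 2. The log2 fold change was 0.36 (SE 0.11, adjusted p = 0.0398) for high flow against static, -0.17 (SE 0.11, adjusted p = 0.387) for low flow against static and 0.53 (SE 0.11, adjusted p = 0.0398) for high flow against low flow, a 1.44-fold difference between the rates. STARD4, a carrier of cholesterol between membranes (chr5:111496033-111512590, minus strand), had 42.7 and 49.4 CPM in low flow against 38.3 and 31.9 CPM in static, 1.32-fold higher (log2 fold change 0.40, SE 0.12, adjusted p = 0.0498). In high flow it had 37.9 and 43.0 CPM, which overlapped static, and its log2 fold change was 0.21 (adjusted p = 0.249). The difference of -0.19 between the rates did not pass (adjusted p = 0.621).

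6 sterol enzymes lay lower in both high flow libraries than in both static libraries, as did 29.4% of all genes tested, and none of them passed the test. MSMO1, the sterol methyl oxidase, had 18.9 and 22.9 CPM in high flow, against 27.4 and 25.1 CPM in static and 25.6 and 28.5 CPM in low flow. Its log2 fold change was -0.32 against static (adjusted p = 0.0822) and -0.37 against low flow (adjusted p = 0.287). SC5D, the sterol desaturase, had 25.2 and 25.9 CPM in high flow against 29.6 and 33.4 CPM in static (log2 fold change -0.30, adjusted p = 0.0705). SQLE, the squalene epoxidase that makes the first oxygenated step, had 11.3 and 11.5 CPM in high flow against 12.5 and 15.6 CPM in static (log2 fold change -0.31, adjusted p = 0.139). CYP51A1, the lanosterol demethylase, HSD17B7, a sterol ketoreductase, and DHCR7, the final reductase, were also below static in both high flow libraries, with log2 fold changes of -0.19, -0.16 and -0.08. With the GC and length offsets the high flow values against static were -0.10 for MSMO1 (adjusted p = 0.574), -0.10 for SC5D, -0.07 for CYP51A1 and -0.04 for HSD17B7, while SQLE was at -0.28 and DHCR7 at -0.25.

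LSS, which closes the sterol rings, did not pass either, with 43.5 and 39.9 CPM in high flow against 37.6 and 31.2 CPM in static (log2 fold change 0.28, adjusted p = 0.101), and with the offsets its value was 0.03 (adjusted p = 0.882). Squalene synthase FDFT1 (log2 fold change -0.15) and the decarboxylating dehydrogenase NSDHL (0.02) overlapped with static under high flow. Under low flow the 10 members of the group other than STARD4 had log2 fold changes from -0.23 for SQLE to 0.08 for LSS, and none passed. Low flow values against static were -0.05 for CYP51A1 and FDFT1, -0.04 for SC5D, -0.09 for NSDHL, -0.15 for DHCR7, 0.00 for HSD17B7 and 0.05 for MSMO1. The values of CYP51A1 are uncertain, since 79.4% of its exon bases lie within a further gene annotated on the same strand. HSD17B7 has pseudogene copies, which makes its level of 5.29 to 6.56 CPM uncertain as well.

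Fatty acid synthesis had 2 of 8 genes higher under low flow, and 3 higher and 1 lower under high flow. Of all genes tested, 3.25% were called higher and 3.49% lower under low flow, and 7.49% and 6.43% under high flow. ACSS2, which makes acetyl-CoA from acetate in the cytosol and nucleus (chr20:34872146-34927962, plus strand), had 43.8 and 42.9 CPM in static, 55.1 and 64.9 CPM in low flow and 58.4 and 58.0 CPM in high flow. All 4 flow libraries lay above both static libraries. The log2 fold change was 0.47 (SE 0.10, adjusted p = 0.0140) under low flow and 0.43 (SE 0.10, adjusted p = 0.0123) under high flow, 1.38-fold and 1.34-fold. SCD, the desaturase that makes oleate and palmitoleate (chr10:100347124-100364834, plus strand), had 207 and 199 CPM in static, 250.4 and 332 CPM in low flow and 297 and 269 CPM in high flow. Its low flow libraries were the least alike of the 3 groups, with an SD of 57.7 CPM around a mean of 291 CPM. The log2 fold change was 0.52 (SE 0.12, adjusted p = 0.0176) under low flow and 0.48 (SE 0.12, adjusted p = 0.0149) under high flow. SCD also has a pseudogene copy that can share its reads.

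FASN, the multienzyme that builds palmitate (chr17:82078333-82098332, minus strand), had 291 and 283 CPM in static, 336 and 341 CPM in low flow and 389.9 and 356 CPM in high flow. The libraries of the 3 groups did not overlap. Its log2 fold change was 0.24 (SE 0.10, adjusted p = 0.139) under low flow and 0.38 (SE 0.10, adjusted p = 0.0149) under high flow. With the GC and length offsets FASN's high flow value turned to -0.01 (adjusted p = 0.935), and the call was lost. ELOVL6, which lengthens palmitate to stearate (chr4:110045846-110199199, minus strand), had 54.9 and 57.0 CPM in high flow against 67.9 and 74.4 CPM in static, 1.27-fold lower (log2 fold change -0.35, SE 0.11, adjusted p = 0.0449). Its low flow log2 fold change was -0.16. Its low flow libraries, at 70.8 and 56.2 CPM, were spread over both levels, and the difference of -0.18 between the rates did not pass (adjusted p = 0.620).

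Of the enzymes that feed FASN, ACLY and ACACA did not pass, while ACSS2 passed at both rates, as given above. ACLY, which makes acetyl-CoA from citrate, had 337 and 314 CPM in low flow and 316 and 332 CPM in high flow, against 344 and 325 CPM in static. Its log2 fold changes were -0.04 under low flow (95% interval -0.24 to 0.16) and -0.05 under high flow (95% interval -0.25 to 0.16). ACACA, the acetyl-CoA carboxylase, had 122 and 118 CPM in low flow against 91.6 and 108 CPM in static (log2 fold change 0.27, adjusted p = 0.116), and a log2 fold change of 0.17 under high flow. FADS1 and FADS2, desaturases of polyunsaturated fatty acids, had both flow groups above static, with log2 fold changes of 0.07 and 0.13 under low flow and 0.05 and 0.21 under high flow, none of which passed. With the GC and length offsets the high flow values turned to -0.02 for FADS1 and -0.05 for FADS2. These desaturase genes share 490 exon bases on opposite strands.

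Per kilobase of exon, ACLY had the highest level of all members (a mean of 62.9 CPM per kilobase over the 3 groups). SCD (48.3) and FASN (35.5) followed. The length used was that of all annotated exons together, 9364 bases for FASN and 10230 for FADS1. Their longest transcripts have 8565 and 4525 bases, so the order of members depends on the length chosen. SCD was above FASN in 6 of 6 libraries, and ACLY above SCD in 5 of 6. The mevalonate and sterol enzymes lay below ACLY, SCD and FASN, from 1.24 CPM per kilobase for HSD17B7 to 23.7 for FDPS. The other fatty acid synthesis genes lay within that range, from 8.52 for ACACA to 20.9 for FADS1.

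ACSL1 was the 1 of 3 long-chain acyl-CoA synthetases that passed, and it passed under low flow. These enzymes couple fatty acids to coenzyme A for use in lipids or for oxidation. ACSL1 (chr4:184755595-184826818, minus strand) had 28.3 and 28.9 CPM in static, 36.1 and 37.5 CPM in low flow and 33.1 and 33.4 CPM in high flow, with no overlap between the groups. The log2 fold change was 0.36 (SE 0.10, adjusted p = 0.0411) under low flow, 1.29-fold, and 0.22 (SE 0.10, adjusted p = 0.169) under high flow. The difference of -0.15 between the rates did not pass (adjusted p = 0.661). ACSL3, a lipid droplet form, had 135 and 138 CPM in high flow against 139 and 179.6 CPM in static (log2 fold change -0.23, adjusted p = 0.190). ACSL4, which prefers arachidonate, had 181 and 201 CPM in high flow against 197 and 234 CPM in static (log2 fold change -0.17, adjusted p = 0.285). Under low flow the log2 fold changes were -0.04 for ACSL3 and 0.02 for ACSL4.

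None of the 5 genes of glycerolipid synthesis and storage passed in any comparison, and at an unadjusted p under 0.05 there were 2 higher, both under high flow against static. DGAT1, one of the enzymes that complete triglyceride synthesis, had 34.0 and 31.1 CPM in high flow against 27.5 and 25.3 CPM in static (log2 fold change 0.30, adjusted p = 0.0694). With the GC and length offsets its value was 0.01. LPIN1, the phosphatidate phosphatase, had 84.6 and 87.6 CPM in high flow against 74.7 and 73.0 CPM in static (log2 fold change 0.22, adjusted p = 0.128). DGAT2, the other enzyme of that final step, had a log2 fold change of 0.30 at both rates with an SE of 0.15, and the lipid droplet coat gene PLIN2 had 0.17 under low flow and 0.14 under high flow. Under low flow the log2 fold change was 0.11 for DGAT1 and 0.15 for LPIN1. GPAM, which starts glycerolipid synthesis at mitochondria, had -0.10 under low flow and -0.17 under high flow, with overlapping groups.

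Between high flow and low flow the other 37 members had log2 fold changes from -0.37 for MSMO1 to 0.20 for LSS, and none passed (lowest adjusted p = 0.287). The regulators SREBF2 and SCAP were at 0.13 and 0.11. Among mevalonate genes HMGCS1 was at -0.19 and IDI1 at -0.13, ACAT2 at 0.00, PMVK at 0.06, MVD at 0.07, FDPS at 0.08 and MVK at 0.09. Among sterol genes SC5D was at -0.26, HSD17B7 at -0.17, CYP51A1 at -0.14, FDFT1 at -0.10, SQLE at -0.08, DHCR7 at 0.08 and NSDHL at 0.11. Both high flow libraries lay below both low flow libraries for MSMO1, SC5D, HSD17B7, CYP51A1, FDFT1 and SQLE and above them for LSS and NSDHL. Of all genes tested, 21.5% lay below in this way and 21.2% above. With the GC and length offsets MSMO1 was at -0.23, SC5D at -0.12, HSD17B7 at -0.08, CYP51A1 at -0.05 and LSS at 0.06. FDFT1 was then at -0.10, SQLE at -0.07 and NSDHL at 0.10. Among fatty acid genes FASN was at 0.14, FADS2 at 0.08, ACLY at -0.01, FADS1 at -0.02, ACSS2 and SCD at -0.04 and ACACA at -0.10. ACSL3 and ACSL4 were both at -0.19, and the glycerolipid genes ran from -0.07 for GPAM through PLIN2 (-0.03), DGAT2 (-0.01) and LPIN1 (0.07) to 0.19 for DGAT1.

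**Figure D3:**
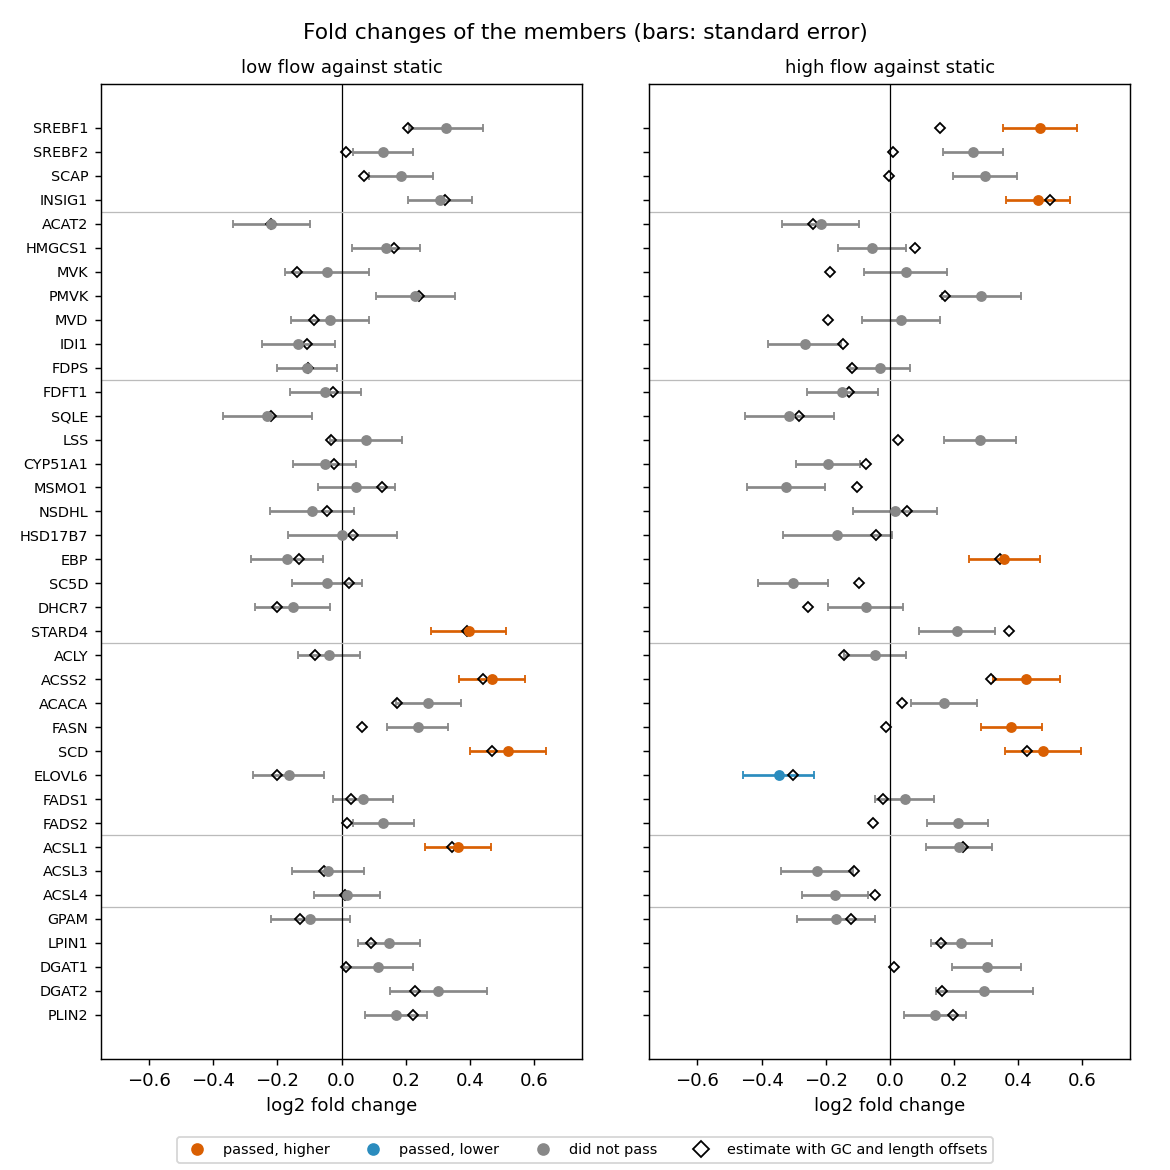
Log2 fold changes of the 38 members for low flow against static (left) and high flow against static (right), with bars for 1 SE either side; orange and blue mark those that passed as higher or lower, and diamonds give the estimate with GC and length offsets. The diamond of FASN sits at -0.01 under high flow, while those of INSIG1, ACSS2, SCD and EBP stay at 0.50, 0.32, 0.43 and 0.34.

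The members' fold changes under high flow went with the GC content of their transcripts, which ran from 34.2% for STARD4 to 65.3% for FASN with a median of 49.5%, against 48.5% over all genes. Spearman's rho between GC content and log2 fold change was 0.14 over the 38 members for low flow against static, 0.60 for high flow against static and 0.83 for high flow against low flow. Over 19604 genes with a GC value it was 0.06, 0.31 and 0.45. These are descriptions across genes of the same libraries, and genes are not independent replicates. EBP, with 53.5% GC, had the highest value of the members between the flow rates, at 0.53.

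Offsets were therefore also fitted that remove the smooth trend with GC content and transcript length in each library. They took the place of the TMM factors, so the scaling of the libraries changed along with the trend. The median shift in log2 fold change over all genes was -0.01 for high flow against static. Under high flow INSIG1 (adjusted p = 0.00400), ACSS2 (0.0431), SCD (0.0437) and EBP (0.0479) still passed against static, while SREBF1, FASN and ELOVL6 (log2 fold change -0.30, adjusted p = 0.0725) did not. Under low flow ACSS2 (adjusted p = 0.0140), ACSL1 (0.0257) and SCD (0.0351) passed, STARD4 did not (0.0652), and INSIG1 did (log2 fold change 0.32, adjusted p = 0.0313). EBP did not pass between the flow rates with the offsets (log2 fold change 0.48, adjusted p = 0.0950). Over all genes the offsets changed the split under high flow against static to 904 higher and 1197 lower, against 1549 higher and 1329 lower without them.

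**Figure D4:**
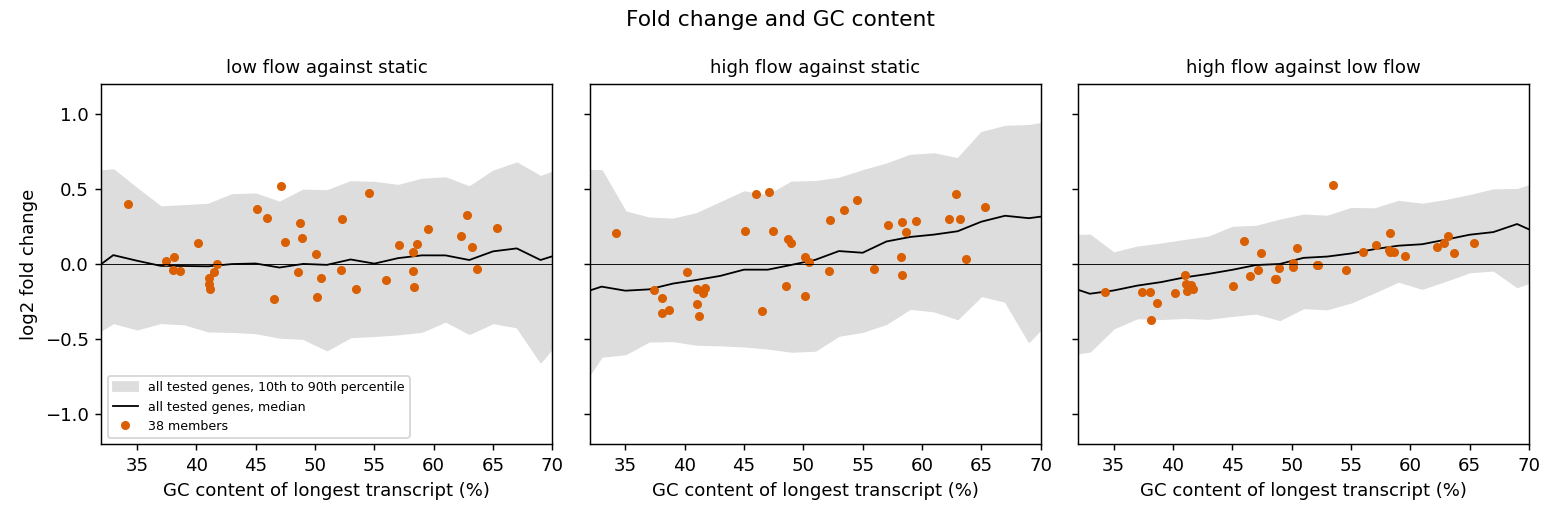
Log2 fold change against the GC content of the longest transcript for low flow against static, high flow against static and high flow against low flow; orange points are the 38 members, the line and grey band the median and the 10th to 90th percentile of all tested genes. The members are flat over GC content in the first panel (rho 0.14) and climb with it in the other panels (rho 0.60 and 0.83), and EBP is the point at 0.53 in the last.

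Genes of neighbouring lipid pathways were read from 6 further lists, whose counts stand beside 3.25% of all genes tested called higher and 3.49% lower under low flow, and 7.49% and 6.43% under high flow. With 7 to 24 tested genes a list, several of these counts are near those shares. Of 7 tested enzymes of cholesterol synthesis outside the members, TM7SF2, a sterol reductase, rose at both flow rates and ACAT1, the mitochondrial thiolase, fell under high flow. TM7SF2 had 29.5 and 23.04 CPM in static, 42.7 and 46.2 CPM in low flow and 57.7 and 46.4 CPM in high flow. Its log2 fold change was 0.76 (SE 0.13, adjusted p = 0.00507) under low flow and 0.99 (SE 0.13, adjusted p = 0.000327) under high flow, larger than that of any of the 38 members, and it passed with the offsets too (0.77 under high flow, adjusted p = 0.000432). ACAT1 had 48.0 and 49.5 CPM in high flow against 58.4 and 64.4 CPM in static (log2 fold change -0.33, adjusted p = 0.0472), and with the offsets it did not pass (adjusted p = 0.210).

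Of 13 genes of SREBP processing and sterol sensing, 1 rose under low flow, and 3 rose and 1 fell under high flow. GRAMD1B, which carries cholesterol from the plasma membrane to the endoplasmic reticulum, had 61.7 and 62.1 CPM in static, 77.5 and 89.9 CPM in low flow and 92.3 and 87.6 CPM in high flow. It rose 1.35-fold under low flow (adjusted p = 0.0166) and 1.45-fold under high flow (adjusted p = 0.00268). Its relative GRAMD1A rose 1.45-fold under high flow, with 56.3 and 50.7 CPM against 40.5 and 33.3 CPM in static (adjusted p = 0.00556). With the offsets the log2 fold change of GRAMD1A was 0.29 (adjusted p = 0.0384), against 0.54 without them. PAQR3, a Golgi anchor of the SCAP complex, had 25.0 and 26.8 CPM in high flow against 34.7 and 34.0 CPM in static, and fell 1.33-fold (adjusted p = 0.0174). It did not pass with the offsets (adjusted p = 0.0508).

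Of 15 genes of sterol transport, storage and the liver X receptor (LXR), RXRA and ABCG1 rose at both rates and none fell. RXRA, the retinoid receptor that pairs with LXR and other nuclear receptors, had 64.4 and 61.9 CPM in static, 86.7 and 102 CPM in low flow and 109.7 and 95.9 CPM in high flow. All 4 flow libraries lay above both static libraries, and the log2 fold change was 0.58 (SE 0.11, adjusted p = 0.00589) under low flow and 0.70 (SE 0.11, adjusted p = 0.000613) under high flow. With the offsets the high flow value of RXRA was 0.39 (adjusted p = 0.0131). ABCG1, a sterol exporter and LXR target, had 11.0 and 8.39 CPM in static, 13.9 and 16.8 CPM in low flow and 15.7 and 12.7 CPM in high flow. It rose 1.59-fold under low flow (adjusted p = 0.0212) and 1.47-fold under high flow (adjusted p = 0.0292), and with the offsets the high flow call was lost (adjusted p = 0.0694).

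Of 22 tested further genes of fatty acid synthesis and elongation, none passed under low flow and 3 rose under high flow. Under low flow edgeR gave 3 of them higher and 1 lower at an unadjusted p under 0.05, against 11.7% of all genes in each direction. MLXIP, a glucose-sensing transcription factor, had 134 and 123 CPM in high flow against 86.2 and 89.2 CPM in static (1.46-fold, adjusted p = 0.00319). ACACB, the mitochondrial acetyl-CoA carboxylase, rose 1.38-fold (adjusted p = 0.0190), and the citrate carrier SLC25A1 rose 1.34-fold (adjusted p = 0.0240). All 3 have a GC content above the median, and none passed with the offsets (adjusted p = 0.0826, 0.202 and 0.127).

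Of 21 tested further genes of glycerolipid synthesis and lipid droplets, 1 rose and 2 fell under low flow, and 5 rose and 2 fell under high flow. The droplet coat gene PLIN3 had 76.9 and 65.0 CPM in static, 84.9 and 106 CPM in low flow and 107 and 98.2 CPM in high flow, and it rose 1.35-fold (adjusted p = 0.0356) and 1.45-fold (adjusted p = 0.00761). G0S2, an inhibitor of the triglyceride lipase, had 182 and 174 CPM in static, 133 and 116 CPM in low flow and 132 and 112 CPM in high flow, 1.43-fold (adjusted p = 0.00984) and 1.46-fold (adjusted p = 0.00329) lower than static. That lipase, PNPLA2, rose 1.36-fold under high flow, with 131 and 113 CPM against 96.1 and 82.5 CPM in static (adjusted p = 0.0104), and not with the offsets (adjusted p = 0.105). HILPDA, another inhibitor of the lipase, had 23.7 and 25.0 CPM in static, 8.80 and 12.7 CPM in low flow and 8.31 and 8.39 CPM in high flow, and fell at both rates (adjusted p = 0.000463 and 1.3e-05). The acyltransferase AGPAT2 rose 1.39-fold under high flow (adjusted p = 0.0174). AGPAT1 and the lipin LPIN3 were both called at an adjusted p of 0.0499. None of these 3 passed with the offsets (adjusted p = 0.0683, 0.0686 and 0.210).

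Of 24 genes of fatty acid oxidation and PPAR signalling, 1 rose and 1 fell under low flow, and 3 rose and 2 fell under high flow. PPARGC1B, a coactivator of mitochondrial genes, had 7.28 and 7.56 CPM in static, 4.76 and 4.36 CPM in low flow and 4.89 and 5.20 CPM in high flow. It fell 1.63-fold under low flow (adjusted p = 0.0197) and 1.47-fold under high flow (adjusted p = 0.0334). Acyl-CoA dehydrogenases went both ways under high flow: ACADVL, for very long chains, had 489.9 and 441 CPM against 376 and 361 CPM in static (1.26-fold higher, adjusted p = 0.0300), and ACADM, for medium chains, had 56.5 and 65.4 CPM against 73.4 and 79.5 CPM (1.25-fold lower, adjusted p = 0.0448). CPT1B, a carnitine palmitoyltransferase, rose 1.34-fold under high flow (adjusted p = 0.0309). ACADVL, ACADM and CPT1B did not pass with the offsets (adjusted p = 0.201, 0.196 and 0.105). ANGPTL4, a lipoprotein lipase inhibitor and PPAR target, had 44.5 and 39.4 CPM in static, 60.7 and 70.1 CPM in low flow and 106 and 89.8 CPM in high flow, and it was the 1 gene of the 6 lists that passed between the flow rates (log2 fold change 0.58, SE 0.11, adjusted p = 0.0206). That call was lost with the offsets (0.41, adjusted p = 0.0759) and in each fit that left out 1 library, other than the second low flow library. TM7SF2, RXRA, HILPDA and ANGPTL4 passed against static under high flow in all 14 alternatives.

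**Figure D5:**
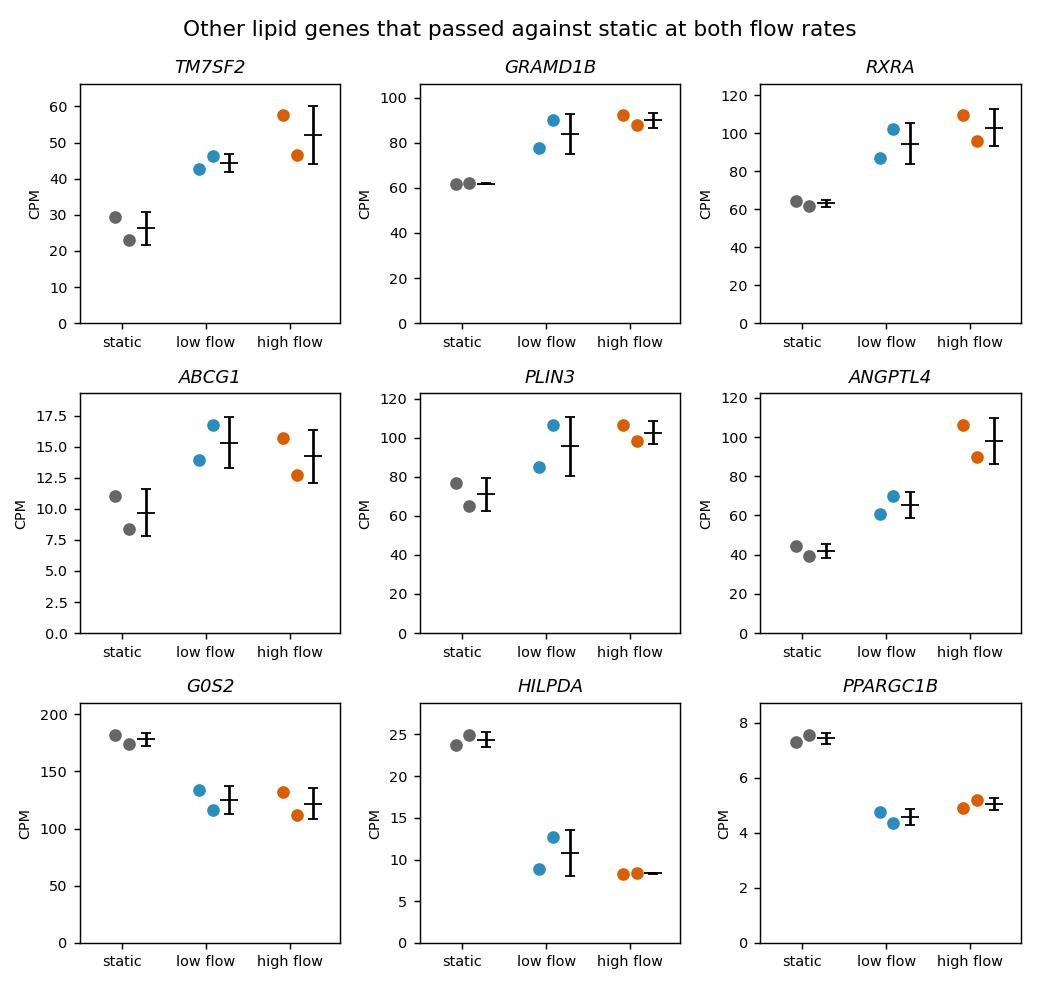
CPM of the 9 genes of the further lipid lists that passed against static at both flow rates, by group on the horizontal axis; points are libraries and bars the mean and SD of 2 libraries, on axes that start at 0. In every panel the 4 flow libraries lie on 1 side of both static libraries, above them for TM7SF2, GRAMD1B, RXRA, ABCG1, PLIN3 and ANGPTL4 and below them for G0S2, HILPDA and PPARGC1B.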

How the data were processed

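RNA of 6 libraries was measured by sequencing poly(A) RNA with a KAPA stranded mRNA kit, per the labels' protocols. The authors deposited 1 table of raw counts per gene. STAR, featureCounts and hg38 are named in the submitters' processing notes without versions or settings, while the sources used here do not give the annotation behind the counts. Columns were matched to samples through the column names in the labels. Library totals, 17822642 to 53279537 counts, set the precision, and the intervals given cover the fit's spread between libraries.

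Genes were tested here in R 4.3.3 with edgeR 4.0.16, by its quasi-likelihood F-test (TMM normalization, robust dispersion, filterByExpr with its default minimum count of 10, all 6 libraries in 1 fit of 3 group means with 3 residual degrees of freedom). Two-sided p-values received Benjamini-Hochberg adjustment across all 20676 genes, comparison by comparison, and 0.05 was the threshold. Standard errors (SE) came from the test statistic. CPM are counts scaled by library size and TMM factor, given per library. Replicates were not copies of each other (chi-square per degree of freedom 12.1 to 29.8 between the libraries of a group).

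Gene positions, lengths and GC content came from GENCODE 29 on GRCh38, in which all 38 members matched 1 gene, counted from 1. Promoter sequences came from RefSeq. Alternatives were RLE and upper-quartile normalization, no expression filter, DESeq2 1.42.0, only the 4 libraries compared, GC and length offsets (natural splines with 5 degrees of freedom), a replicate block, that block with the offsets, and each library left out.  All 38 members are given in every comparison, whatever their p, and of the 6 further lists (109 genes) those that passed, at most 6 a list and comparison by p; 1 gene that passed is counted but its values are not reported here. The members and lists were chosen with earlier results of these data known. Members are described by counts and medians, and no test of a list as a whole was made.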

Additional observations from a re-analysis of the deposited data

Results flagged for a closer look

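EBP differed between the flow rates: it was higher under high flow than under low flow, with a log2 fold change of 0.53 (edgeR adjusted p = 0.0398, 26.7 and 27.7 CPM against 19.4 and 18.4 CPM), so its change against static was not the same at the 2 rates. ANGPTL4 differed in the same way, with a log2 fold change of 0.58 for high flow against low flow (edgeR adjusted p = 0.0206, 106 and 89.8 CPM against 60.7 and 70.1 CPM). The ANGPTL4 call was lost with the GC and length offsets (0.41, adjusted p = 0.0759), with only the 4 libraries compared, with the replicate block, and in 5 of 6 fits that left out 1 library. The EBP call was lost under the same settings, and also in 5 of 6 such fits. In both values the lane differs along with the flow rate, and their effects cannot be told apart.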

How the results depend on the processing

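The counts of members called moved with several choices, and the cause was not tested. An equal count need not mean the same members. With a library left out, some calls fell on members that were not called with all 6 libraries, such as ACSL3 under high flow against static. Under low flow against static, 4 higher became 2 with the replicate block, 1 with the replicate block with GC and length offsets and 2 with only the 4 libraries compared, and 0 to 5 when a library was left out. Under high flow against static, 6 higher became 1 with the replicate block with GC and length offsets and 0 to 7 when a library was left out. The 1 lower became 0 with the offsets, with the block and with both, and 0 to 1 when a library was left out. Between the flow rates, the 1 higher became 0 with the offsets, with the block, with both and with only the 4 libraries compared, and 0 to 1 when a library was left out. RLE or upper-quartile normalization, no expression filter and DESeq2 kept all of these counts within 1.5 times. No member was called lower under low flow against static, or lower under high flow against low flow, in any alternative. FASN under high flow against static was the member that turned its sign after a call, at -0.0135 with the offsets (adjusted p = 0.935) and -0.0133 with the replicate block and the offsets (adjusted p = 0.947).

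Of 14 alternatives, the calls under high flow passed in 12 for INSIG1, 10 for ACSS2, 10 for SREBF1, 9 for SCD, 9 for FASN, 8 for EBP and 7 for ELOVL6. Those under low flow passed in 11 for ACSS2, 9 for SCD, 6 for ACSL1 and 4 for STARD4. EBP and ANGPTL4 between the flow rates passed in 5 each.

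The labels do not say that a replicate number marks a shared culture or day. Deviations of same-numbered libraries correlated at -0.20 between static and low flow, -0.02 between static and high flow and 0.12 between low and high flow, so the block was read as an alternative and not as a pairing. Over all genes, the block gave 411 higher and 496 lower for low flow against static, in place of 672 and 722. Depth was lowest in static, and 2 libraries a group limit every value here.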
